A study of Mus musculus with 12 samples.

Results

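Trav9 is a family of variable genes of the T cell receptor (TCR) α chain, and 39096 of the 509702 TRAC clonotypes in 12 mouse TCR libraries carried it. The family was made up of every α chain clonotype whose listed V region was Trav9 or a copy of it with the letter d or n. A clonotype was 1 combination of listed V region, J region and CDR3 nucleotides within a library. The family was selected on the UMI counts of the largest α chain clonotypes in tumors, so its tumor levels are given as a description, with no test.

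The libraries came from CD8+ T cells of mice bearing Q1-2 tumors, a mouse head and neck squamous cell carcinoma line that the study's methods place in C57BL/6 mice, aged 6 to 8 weeks when bought. Wild-type mice were given control IgG, IL-10-Fc (an Fc-linked IL-10), αCSF1R (an antibody that blocks the CSF-1 receptor) or BF10 (that antibody fused to IL-10), at 30 mg/kg in 3 doses with 3 days between them by the labels. The study's methods give a dose of its own to each agent, so the single dose of the labels may not hold for all. Each treatment gave 1 tumor, 1 spleen and 1 tumor-draining lymph node (tdLN) library, and each library held the RNA of 3 mice mixed together. The cells were enriched with CD8 microbeads. The titles of the tdLN libraries lack the CD8 prefix of the other 8, although their cell type is given as CD8 T cells.

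With 1 library per treatment and tissue, no difference between treatments could be tested, and a few large clones of 1 mouse cannot be told apart from an effect of the treatment. Levels were counted in unique molecular identifiers (UMIs), each marking 1 cDNA molecule, with at least 3 reads. The libraries held 23650 to 137078 TRAC UMIs, the fewest in the αCSF1R tumor. A clonotype listed nowhere in a library could still make up 3 UMIs of its chain, a share of 0.00219% to 0.0127%. More UMIs can mean more cells or more RNA per cell, which cannot be told apart. The αCSF1R and BF10 tdLN libraries stood apart, with 8.31% and 6.49% of their TRAC UMIs supported by at least 7 reads, against 30.8% to 73.3% in the other 10, and with 0.312 and 0.274 TRAC UMIs per TRBC UMI against 0.672 to 0.816. TCR γ and δ chains (TRGC and TRDC) took 8.93% of all UMIs in the αCSF1R tumor and 4.27% in the control IgG tumor. They took 4.96% to 6.34% in the tdLNs and 0.677% to 2.30% in the other 6 libraries. The cells that these chains came from are not recorded. Their part in the results below was not tested.

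An α chain is built when a V gene is joined to 1 of many J genes, and the junction is the CDR3, the loop that lies over the peptide held by an MHC molecule. Terminal transferase can add bases to the junction that neither gene encodes, which makes most α chains rare, while chains without such bases can arise again and again. Large blocks of the mouse Trav locus are repeated, and the letters d and n mark the copies of a gene in the repeats. Successive rearrangements of 1 allele use V genes and J genes ever farther apart, so that V genes near the J genes tend to pair with the nearest J genes, and V genes farther away with more distant ones.

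The genome annotation (GRCm38) held 11 Trav9 genes on the + strand of chromosome 14, between 52792316 and 53676630, a span of 884 kb upstream of the Traj genes. One of them, Trav9n-1, is annotated as a pseudogene. Each ends in 13 bases that can enter the CDR3, and these fall into 4 kinds by their first 9 bases. They are shown because they are the only part of the V gene that can be read in the CDR3 itself. The capitals mark the codons after the conserved cysteine, where the copies differ:

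Trav9d-1 (chr14:52792316-52792777): tgtGCTGTGagcg
Trav9n-3 (chr14:53231433-53232102): tgtGCTGTGagca
Trav9n-2 (chr14:53203122-53203554): tgtGTTCTGagcg
Trav9-2 (chr14:53590857-53591514): tgtGTTTTGagcg
Trav9n-4 (chr14:53294341-53295030): tgtGCTCTGagca

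Trav9d-1, Trav9d-3, Trav9n-1, Trav9n-3, Trav9-1 and Trav9-4 start the CDR3 with CAV. Trav9-2, Trav9d-2 and Trav9n-2 start it with CVL, and Trav9d-4 and Trav9n-4 with CAL. Trav9d-3 and Trav9n-3 could not be separated even by the whole second exon, where they were identical over 294 bases, nor could Trav9d-2 and Trav9n-2. Trav9d-1 and Trav9-1 had 99.3% of their bases in common. A listed value is therefore the assignment made by the analysis portal rather than proof of 1 gene.

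The CDR3s of the Trav9 clonotypes that were largest in each tumor follow, since most of what the family showed in tumors rests on them. Lower case marks bases found in a germline Trav9 or Traj end, and capitals mark untemplated bases:

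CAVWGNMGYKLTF, Trav9n-3 with Traj9, control IgG tumor: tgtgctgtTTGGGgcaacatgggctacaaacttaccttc
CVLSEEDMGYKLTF, Trav9n-2 with Traj9, control IgG tumor: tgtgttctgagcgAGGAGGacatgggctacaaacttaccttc
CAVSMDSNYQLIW, Trav9n-3 with Traj33, αCSF1R tumor: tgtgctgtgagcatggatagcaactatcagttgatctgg
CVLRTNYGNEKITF, Trav9n-2 with Traj48, IL-10-Fc tumor: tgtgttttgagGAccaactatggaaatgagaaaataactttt
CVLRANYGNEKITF, Trav9n-2 with Traj48, BF10 tumor: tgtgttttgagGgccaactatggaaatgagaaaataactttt

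Traj9 lies at chr14:54209393-54209450, Traj33 at chr14:54185358-54185414 and Traj48 at chr14:54169808-54169868.

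Trav9 took 13.6% of TRAC UMIs in the control IgG tumor (95% Wilson interval 13.4% to 13.9%, 10909 UMIs) and 12.2% in the αCSF1R tumor (11.8% to 12.6%, 2889 UMIs). In the IL-10-Fc tumor it took 7.14% (6.98% to 7.30%, 7058 UMIs) and in the BF10 tumor 7.35% (7.21% to 7.5%, 8653 UMIs). The first 2 tumors thus lay above every spleen and tdLN library, and the other 2 lay among them. These intervals cover counting error only.

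In the tdLNs of control IgG and IL-10-Fc mice, the UMI share was 7.76% and 7.84%. In those of αCSF1R and BF10 mice it was 6.78% and 6.38%. Spleens gave 7.44% (BF10), 7.27% (αCSF1R), 7.02% (control IgG) and 6.98% (IL-10-Fc). The 2 tdLN libraries with the fewest reads per UMI were thus the lowest of the 8 libraries outside tumors. They were the highest tdLNs when only UMIs with at least 7 reads were kept, at 7.73% (αCSF1R) and 7.67% (BF10) against 7.28% and 7.58% in the other nodes.

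When each clonotype was counted once, the tumors came close to the other tissues. The family made up 9.07% of TRAC clonotypes in the control IgG tumor (8.51% to 9.67%, 859 clonotypes), 8.03% in the IL-10-Fc tumor (7.76% to 8.30%, 3069), 7.78% in the αCSF1R tumor (6.78% to 8.91%, 189) and 7.81% in the BF10 tumor (7.58% to 8.03%, 4301). Spleens held 7.56% to 8.19%. The tdLN values were 7.89% and 7.94% with control IgG and IL-10-Fc but 6.68% and 6.36% with αCSF1R and BF10.

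**Figure D1:**
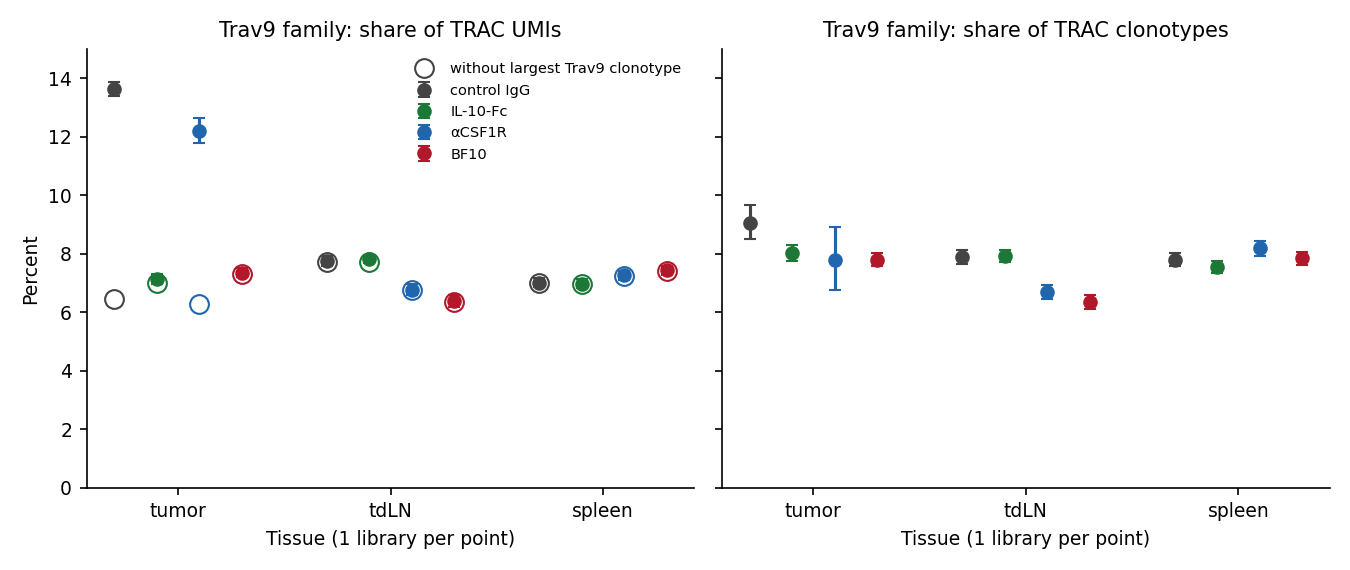
Trav9 share of TRAC UMIs (left) and of TRAC clonotypes (right) in percent, by tissue, with 1 point per library, colour for the treatment and 95% Wilson intervals; open circles leave out the largest Trav9 clonotype of each library. The control IgG and αCSF1R tumors, at 13.6% and 12.2% of UMIs, came down to 6.45% and 6.28% without it.

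Without its largest Trav9 clonotype, the control IgG tumor had a Trav9 share of 6.45% (6.27% to 6.63%) and the αCSF1R tumor one of 6.28% (5.97% to 6.61%), against 7.0% and 7.32% in the IL-10-Fc and BF10 tumors treated in the same way. Spleens then lay at 6.97% to 7.42% and tdLNs at 6.35% to 7.72%. The αCSF1R tumor then lay just below the lowest tdLN, with an interval that included it, and the control IgG tumor lay within the range of the tdLNs. When the 10 largest TRAC clonotypes of any family were left out instead, the control IgG tumor had 6.38% and the αCSF1R tumor 8.62%, the latter still above every tdLN and spleen.

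The largest Trav9 clonotype held 56.4% of all Trav9 UMIs in the control IgG tumor and 51.8% in the αCSF1R tumor. It held 2.20% in the IL-10-Fc tumor, 0.508% in the BF10 tumor, 0.516% to 1.58% in tdLNs and 0.248% to 0.288% in spleens. The 10 largest Trav9 clonotypes of each tumor together held 68.8% (control IgG), 72.6% (αCSF1R), 6.89% (IL-10-Fc) and 2.94% (BF10). Most Trav9 UMIs of the first 2 tumors therefore belonged to few rearrangements, although 23.9% of the control IgG tumor's Trav9 clonotypes had 1 UMI each.

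Other families were set beside Trav9 for how far few clonotypes held their UMIs. In the control IgG tumor the UMI share of the family was 1.5 times its clonotype share, behind Trav5 with 1.80 times, and Trav9 ranked 3 of 15 families compared. In the αCSF1R tumor it was 1.57 times, again rank 3, with Trav15 highest at 2.10 times among 18 families. In the IL-10-Fc and BF10 tumors the ratio was 0.890 and 0.942. By the share of its UMIs in its largest clonotype, Trav9 ranked 1 of 15 families in the control IgG tumor, where Trav5 came next with 49.1% and the median of the others was 13.7%. By that measure it ranked 3 of 18 in the αCSF1R tumor, where Trav11 was highest with 69.4%. By UMI share, Trav9 ranked 2 of 20 families in the control IgG tumor, 4 of 19 in the αCSF1R tumor and 6 of 21 in each of the other tumors.

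Of 15 other families with enough UMIs, Trav5 had the pattern most like that of Trav9 over the 12 libraries, with a Pearson correlation of log2 shares of 0.90. Without the control IgG and αCSF1R tumors it was -0.01 over 10 libraries. Trav15 followed with 0.81, which became -0.55 without those tumors. These likenesses rest on the same pair of tumor libraries, each with its own large clones.

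The clonotype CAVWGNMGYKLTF, listed as Trav9n-3 with Traj9, was the most abundant α chain of the control IgG tumor. It had 6151 UMIs there, 7.70% of TRAC (7.51% to 7.88%), and 8 UMIs in the tdLN of the same treatment. In the other 10 libraries it was not listed, which allows a share of up to 0.0127% in the αCSF1R tumor and of at most 0.00537% in the others. Its junction had 5 untemplated bases, which cover the tryptophan codon after CAV.

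The same tumor held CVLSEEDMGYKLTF at 773 UMIs, rank 9 of its α chains, again with Traj9 and with 6 untemplated bases. It was listed with 2 UMIs in the control IgG tdLN and in no other library. Both chains were thus listed in the node of the same treatment and in no library of another. The second clone carries the codon of Trav9d-2 and Trav9n-2 at the start of its CDR3, and both chains end in MGYKLTF, which Traj9 encodes. A Trav9n-2 chain with Traj37 came next with 201 UMIs, and it was listed with 1 to 3 UMIs in the IL-10-Fc tumor, the BF10 tumor and the control IgG tdLN.

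The leading α chain of the αCSF1R tumor was of another kind. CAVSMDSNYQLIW, listed as Trav9n-3 with Traj33, had 1497 UMIs there, 6.33% of TRAC (6.03% to 6.65%), and its junction had 0 untemplated bases: the 13 bases of Trav9n-3 or Trav9d-3 run straight into the 26 of Traj33. It was listed in 11 of the 12 libraries, with 4 UMIs in the IL-10-Fc tumor, 7 in the BF10 tumor, 4 to 8 in the tdLNs and 7 to 18 in the spleens, 82 in all outside the αCSF1R tumor. The exception was the control IgG tumor, where it was not listed (up to 0.00375%).

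A second Traj33 chain of that tumor, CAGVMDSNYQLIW, had 169 UMIs and was listed in no other library. It differs from the leader by 4 of 39 bases and has 6 untemplated bases, and it has the last residues, MDSNYQLIW, in common with it:

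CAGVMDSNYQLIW, Trav9n-3 with Traj33, αCSF1R tumor: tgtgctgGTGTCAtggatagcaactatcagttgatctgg

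The next chain, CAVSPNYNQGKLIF with Traj23, had 142 UMIs listed as Trav9d-4 and another 132 under other Trav9 values in the same tumor. Under any Trav9 value its CDR3 was found in all 12 libraries, with 3 to 23 UMIs outside the αCSF1R tumor. The same CDR3 nucleotides were thus listed under every treatment, and in 1 tumor they were split over several V values.

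The IL-10-Fc and BF10 tumors had no Trav9 clonotype of that size. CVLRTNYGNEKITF, with Trav9n-2 and Traj48, led Trav9 in the IL-10-Fc tumor at 155 UMIs, 0.157% of TRAC and rank 7, with 5 UMIs in the tdLN of that treatment and none listed elsewhere. It was followed by a Trav9n-3 chain with Traj4 at 103 UMIs and a Trav9n-2 chain with Traj27 at 64. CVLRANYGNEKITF led Trav9 in the BF10 tumor at 44 UMIs, rank 21, and was also listed with 3 UMIs in the control IgG tdLN, 1 in the BF10 tdLN, 7 in the control IgG spleen and 2 in the αCSF1R spleen. The leaders of these 2 tumors differ by 1 base of 42 and by 1 residue.

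Below it in the BF10 tumor, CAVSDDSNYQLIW with Traj33 had 31 UMIs as Trav9d-4 and 28 under other values. A Trav9n-3 chain with Traj12 also had 31 UMIs and was listed in 11 libraries.

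**Figure D2:**
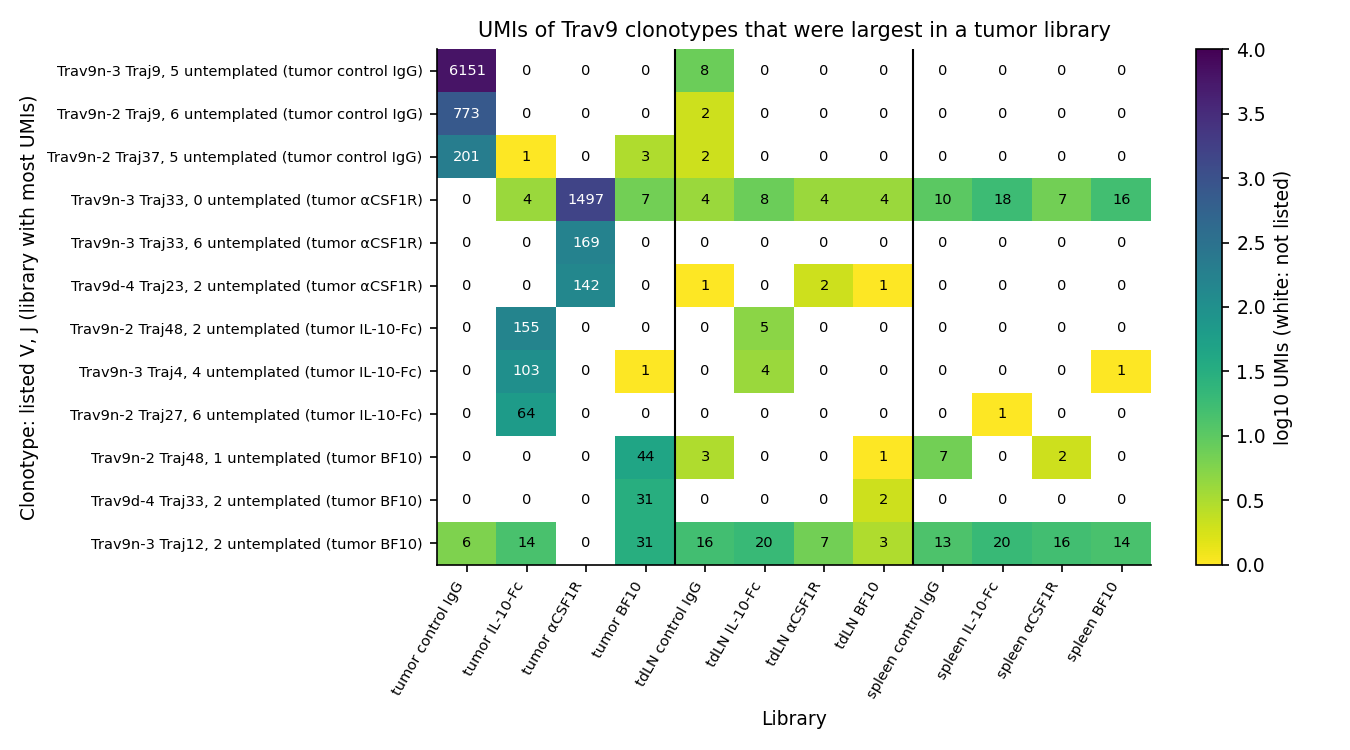
UMIs of the 12 Trav9 clonotypes that were largest in a tumor library, by listed V, J, untemplated bases and the tumor where each was largest, across the 12 libraries (colour: log10 UMIs; white: not listed). The 6151 and 773 UMIs of the Traj9 chains sit in the control IgG tumor with 8 and 2 in its tdLN, while the Traj33 chain of the αCSF1R tumor (1497 UMIs) is listed in 11 libraries.

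The largest clones had many near neighbours. In the control IgG tumor, 39 of 64 Trav9n-3 clonotypes with Traj9 were 1 base away from the leader, with 97 UMIs together and at most 14 each. In the αCSF1R tumor, 19 of 25 Trav9n-3 clonotypes with Traj33 were 1 base away, with 25 UMIs together. Folding each such clonotype into a neighbour with at least 10 times its UMIs removed 66 Trav9 clonotypes (7.68%) of the control IgG tumor and 39 (20.6%) of the αCSF1R tumor, against 0.440% to 1.28% elsewhere. Over all TRAC chains, the same step left 8965 of 9468 clonotypes in the control IgG tumor and 2152 of 2430 in the αCSF1R tumor. How many of these neighbours are sequencing errors was not tested.

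Among the 100 largest TRAC clonotypes of each tumor, Trav9 clonotypes numbered 10 (αCSF1R), 6 (control IgG), 7 (IL-10-Fc) and 7 (BF10), against 5 to 7 in tdLNs and 3 or 4 in spleens. Of the 76 clonotypes above 0.1% of TRAC UMIs in the control IgG tumor, 5 were Trav9, as were 7 of 79 in the αCSF1R tumor. The IL-10-Fc tumor had 2 of 15 and the BF10 tumor 0 of 3. Of all TRAC clonotypes the family made up 9.07% (control IgG), 7.78% (αCSF1R), 8.03% (IL-10-Fc) and 7.81% (BF10) in tumors. It made up 6.36% to 7.94% in tdLNs and 7.56% to 8.19% in spleens. No excess of Trav9 by number is read from these counts.

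The 20 largest Trav9 clonotypes of each tumor were then looked up in the nodes. Of those of the control IgG tumor, 7 were listed in the control IgG tdLN and 4 to 7 in the other tdLNs. For IL-10-Fc, 13 were listed in the node of the same treatment and 8 or 9 in the others. The counts were 6 against 3 or 4 for αCSF1R and 15 against 9 to 12 for BF10. For control IgG the node of the same treatment was level with the highest other node. In spleens the same-treatment counts were 7, 12, 4 and 12 against 5, 8 to 11, 3 or 4 and 10 to 13. These clonotypes were picked by the tumor UMIs that chose the family. The nodes also differed in depth, with 38898 (BF10) to 63371 (IL-10-Fc) TRAC clonotypes. No count for other TRAC chains stands beside these, so nothing is read from them.

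Over all Trav9 clonotypes, the overlap between tissues was measured with the Morisita-Horn index, which runs from 0 for no clonotype in common to 1 for equal shares of each. Between tdLN and spleen its mean was 0.166 for the same treatment (0.133 to 0.200, n = 4) and 0.148 for different treatments (0.131 to 0.174). An exact permutation test, one-sided, over all 24 pairings of treatments gave p = 0.0417, the smallest it can give, and 0.125 after Benjamini-Hochberg adjustment over 3 tissue pairs. The index was 0.0554 against 0.0520 between tumor and tdLN and 0.0850 against 0.0814 between tumor and spleen. It weighs the tumor UMIs that chose the family, so these values are given without a test. The share of Trav9 clonotypes of the first tissue that the second listed, which uses presence alone, was 13.3% against 12.5% for tdLN in spleen (exact permutation p = 0.0833, adjusted 0.125), 11.8% against 11.4% for tumor in tdLN (exact permutation p = 0.208, adjusted 0.208) and 14.8% against 13.7% for tumor in spleen (exact permutation p = 0.0833, adjusted 0.125). No pair passed after adjustment in Trav9. In the other TRAC chains the index gave adjusted p = 0.0625 for tumor with tdLN, 0.542 for tumor with spleen and 0.0625 for tdLN with spleen in the same exact permutation test. By presence, all 3 pairs of tissues had adjusted p = 0.0417 in these chains, with the exact permutation p at its smallest in each. Whether Trav9 differs from them was not tested.

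The difference in UMI share between tdLN and spleen, which did not choose the family, averaged 0.0114 percentage points (SD 0.937, n = 4) and was positive in 2 of 4 treatments (two-sided exact sign-flip permutation p = 1). For clonotypes it was -0.635 percentage points (SD 1.0, n = 4, exact permutation p = 0.5). The smallest p that 4 pairs allow is 0.125. Both averages hide a split: tdLN minus spleen was 0.737 with control IgG and 0.854 with IL-10-Fc, and it was -0.484 with αCSF1R and -1.06 with BF10, the pairs with few reads per UMI in the tdLN. Over the first 2 pairs alone the UMI difference was 0.796. With UMIs of at least 7 reads the mean over all 4 was 0.474 (exact permutation p = 0.25), and it was 7.73% against 6.69% with αCSF1R and 7.67% against 7.81% with BF10.

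Within the family, the listed copies were compared between tissues. The files gave 32 V values, of which 6 reached 1% of Trav9 UMIs in some library, and 96.5% of clonotypes had a value naming 1 gene. Trav9n-2 was listed for 12614 clonotypes, Trav9d-1 for 9000, Trav9n-3 for 8667, Trav9n-4 for 4108, Trav9d-4 for 3262 and the undecided Trav9n-2/Trav9n-4 for 870.

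Trav9d-1 took 2.88% of TRAC UMIs in the control IgG tdLN, 2.59% in the IL-10-Fc tdLN, 2.53% in the αCSF1R tdLN and 2.31% in the BF10 tdLN. In the spleens of the same treatments it took 1.55%, 1.29%, 1.74% and 1.51%, in this order. The tumors held 0.817%, 1.24%, 0.651% and 1.29%. All 4 tdLNs lay above all 4 spleens, which in turn lay at or above the tumors apart from the IL-10-Fc spleen and the BF10 tumor, whose values were nearly equal. Among 137 listed V values with at least 100 UMIs in these 8 libraries, 12.4% lay above in all 4 tdLNs and 17.5% lay below. Of the 8 Trav9 values among them, 2 lay above (Trav9d-1 and the rare Trav9n-2/Trav9n-3) and 2 below (Trav9n-3 and Trav9n-4). By clonotypes, 1 Trav9 value lay above and 3 below, against 16.1% and 20.4% of all.

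As a part of the Trav9 UMIs of a library, Trav9d-1 made up 33% to 37.3% in tdLNs and 18.5% to 23.9% in spleens, a mean difference of 14.7 percentage points (SD 1.07, n = 4), higher in 4 of 4 treatments. The two-sided exact permutation p was 0.125, the smallest possible, and 0.188 adjusted over 6 values. Trav9n-3 ran the other way, with 14.7% to 17.0% in tdLNs and 22.8% to 26.3% in spleens (difference -7.78, SD 1.52, n = 4, exact permutation p = 0.125, adjusted 0.188). For Trav9n-2 the difference was -4.58 (SD 0.930, n = 4, exact permutation p = 0.125, adjusted 0.188). By clonotypes the difference was 10.6 percentage points for Trav9d-1 and -5.68 for Trav9n-3. The parts add up to the whole family, so the differences of its values are not independent of one another. As a share of TRAC UMIs, Trav9n-2 overlapped between tissues, with 1.74% to 2.34% in tdLNs and 2.21% to 2.45% in spleens.

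The Trav9 clonotype with the most UMIs was a Trav9d-1 chain in the control IgG, IL-10-Fc and αCSF1R tdLNs. In the BF10 tdLN 3 chains were level at 21 UMIs, 2 of them Trav9d-1 and 1 Trav9n-2. No tumor or spleen was led by a Trav9d-1 chain. In the control IgG node it was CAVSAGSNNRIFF with Traj31, at 52 UMIs, and the other nodes held 35, 21 and 21 UMIs of it, against 0 to 5 in tumors and spleens. In the IL-10-Fc node it was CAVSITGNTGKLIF with Traj37, at 170 UMIs and rank 5 of all α chains, with 2 and 3 UMIs in the control IgG and αCSF1R nodes. Under any Trav9 value this CDR3 also had 1 UMI in the IL-10-Fc tumor and 2 in the BF10 tumor. It had 1, 1 and 4 in the control IgG, IL-10-Fc and αCSF1R spleens. The αCSF1R node was led by a Traj27 chain at 23 UMIs. Of the 3 chains of the BF10 node, 2 also used Traj27. One of the 3, a Trav9d-1 chain with Traj27, differs from the leader of the αCSF1R node by 2 bases of 42. The others were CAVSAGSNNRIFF and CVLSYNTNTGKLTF. The Traj31 chain, held by all 4 nodes, and the Traj37 chain, the largest of any node, are shown:

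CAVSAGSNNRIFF, Trav9d-1 with Traj31, tdLNs: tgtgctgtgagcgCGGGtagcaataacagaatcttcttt
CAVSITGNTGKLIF, Trav9d-1 with Traj37, IL-10-Fc tdLN: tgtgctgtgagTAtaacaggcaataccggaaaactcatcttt

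**Figure D3:**
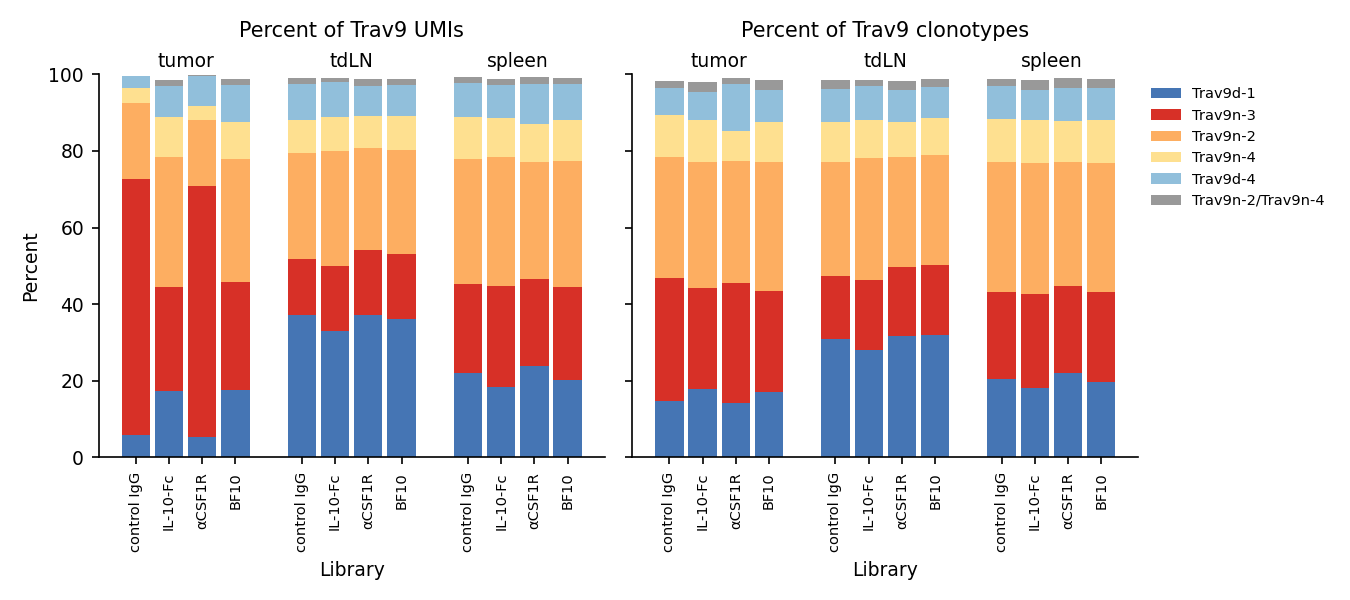
Share of each of the 6 listed values in the Trav9 UMIs (left) and Trav9 clonotypes (right) of every library, in percent, as stacked bars. Trav9d-1 reaches 33% to 37.3% of UMIs in tdLNs, and Trav9n-3 reaches 66.6% and 65.5% in the control IgG and αCSF1R tumors but 26.3% to 32.1% of tumor clonotypes.

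In the control IgG and αCSF1R tumors the leading clone held most Trav9n-3 UMIs, 6151 of 7264 and 1497 of 1892. Trav9n-3 made up 66.6% of Trav9 UMIs in the control IgG tumor, 65.5% in the αCSF1R tumor, 27.0% in the IL-10-Fc tumor and 28.2% in the BF10 tumor. By clonotypes it was 26.3% to 32.1% in the 4 tumors, 16.4% to 18.2% in tdLNs and 22.6% to 24.6% in spleens. Without the 1-base neighbours of the leading clones, the control IgG tumor had 28.9% and the αCSF1R tumor 23.5%, the latter within the range of the spleens. The largest Trav9n-3 clonotypes of the IL-10-Fc and BF10 tumors had 103 and 31 UMIs.

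Values at least 2-fold apart between libraries were counted without a test, among listed V values with at least 100 UMIs in the pair. Between the control IgG tumor and its tdLN, Trav9n-3 was 7.95-fold higher (9.09% and 1.14% of TRAC UMIs), the 1 of 6 Trav9 values past 2-fold upward, against 11.3% of all 106 values. Trav9d-1 (0.284-fold) and Trav9n-2/Trav9n-4 (0.226-fold) were lower, against 26.4% of all. Between the αCSF1R tumor and its tdLN, Trav9n-3 was 6.96-fold higher and Trav9d-1 0.257-fold, 1 of 5 values each way, with 13.3% and 34.7% of all values past 2-fold. Since these tumors chose the family, nothing is read from these counts.

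For IL-10-Fc, 0 of 6 Trav9 values were 2-fold higher in tumor than in tdLN (2.65% of all) and 1 was lower (5.31% of all), Trav9d-1 at 0.479-fold. For BF10, 0 of 6 were past 2-fold either way, against 1.8% of all values upward and 3.6% downward. Trav9d-1 was at 0.560-fold there and Trav9n-3 at 1.93-fold. Trav9d-1 was thus the lower of the pair in all 4 tumors, by an unequal amount.

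Against the control IgG tumor, the IL-10-Fc tumor had 1 of 6 Trav9 values past 2-fold higher (23.6% of all) and 1 lower (11.8%). The BF10 tumor had 1 higher (26.5%) and 1 lower (13.3%). In both, the lower value was Trav9n-3, at 0.212-fold and 0.228-fold, and the higher one was Trav9n-2/Trav9n-4, which had 22 UMIs in the control IgG tumor. The αCSF1R tumor had 1 of 5 higher (16.1%), Trav9d-4 at 2.34-fold, and 0 lower (22.6%). With clonotypes in place of UMIs, Trav9n-3 was past 2-fold higher in tumor than in tdLN for control IgG (2.92% and 1.30% of TRAC clonotypes). The same held for αCSF1R (2.43% and 1.20%). Of these tumor clonotypes, 39 of 276 and 19 of 59 were 1 base away from the leading clone. By clonotypes, 0 Trav9 values were past 2-fold either way in the other 5 comparisons or lower in these. The share of all listed V values past 2-fold by clonotypes is not given here, so nothing is read from these counts.

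The listed value did not always match the germline start of the CDR3. Of clonotypes listed as Trav9d-1, 92.5% started with the CAV bases of that gene, as did 88.1% of those listed as Trav9n-3, and 90.3% of Trav9n-4 clonotypes started with its CAL bases. Of 3262 Trav9d-4 clonotypes, however, 94.6% started with CAV bases and not with the CAL bases of the annotated gene. Of 12614 Trav9n-2 clonotypes, 53.7% had the bases of Trav9-2, 29.7% those of a CAV gene and 8.38% those of Trav9d-2 and Trav9n-2 themselves. The leaders of the IL-10-Fc and BF10 tumors, both listed as Trav9n-2, were among those with the Trav9-2 bases. So were the other Trav9n-2 chains named here, apart from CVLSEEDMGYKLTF. Trimming of the V end removes such bases in some chains, and the portal's germline reference is not given in the sources used here.

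Partner genes of the J side followed the listed copy more than the tissue. The mean Traj number was 22.1 for Trav9n-3, 23.8 for Trav9n-4, 28.6 for Trav9d-1, 32.3 for Trav9n-2 and 37.5 for Trav9d-4, over all clonotypes of 12 libraries. Higher numbers lie closer to the V genes. Over single libraries it was 20.5 to 25.8 for Trav9n-3 and 35.1 to 38.5 for Trav9d-4, the lowest of the latter from 23 clonotypes in the αCSF1R tumor, so that the ranges did not overlap. Traj genes numbered above 40 were used by 39.5% of Trav9d-4 clonotypes and 8.19% of Trav9n-3 clonotypes, and those below 20 by 4.78% and 44.5%.

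The same was seen when clonotypes listed as Trav9n-2 were divided by their CDR3 start. Those with the Trav9-2 bases had a mean Traj number of 31.6, those with CAV bases 37.0, and those with the bases of Trav9d-2 and Trav9n-2 21.4. By the annotation Trav9-2 is closer to the Traj genes than Trav9d-2 and Trav9n-2. The listed values did not follow the annotated order throughout. Trav9d-1 and Trav9d-4 start at 52792316 and 52983201, farther from the Traj genes than Trav9n-3 (53231433) and Trav9n-4 (53294341). Their mean Traj numbers, 28.6 and 37.5, were nonetheless higher than the 22.1 and 23.8 of Trav9n-3 and Trav9n-4. Most clonotypes listed as Trav9d-4 did not carry its annotated start.

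**Figure D4:**
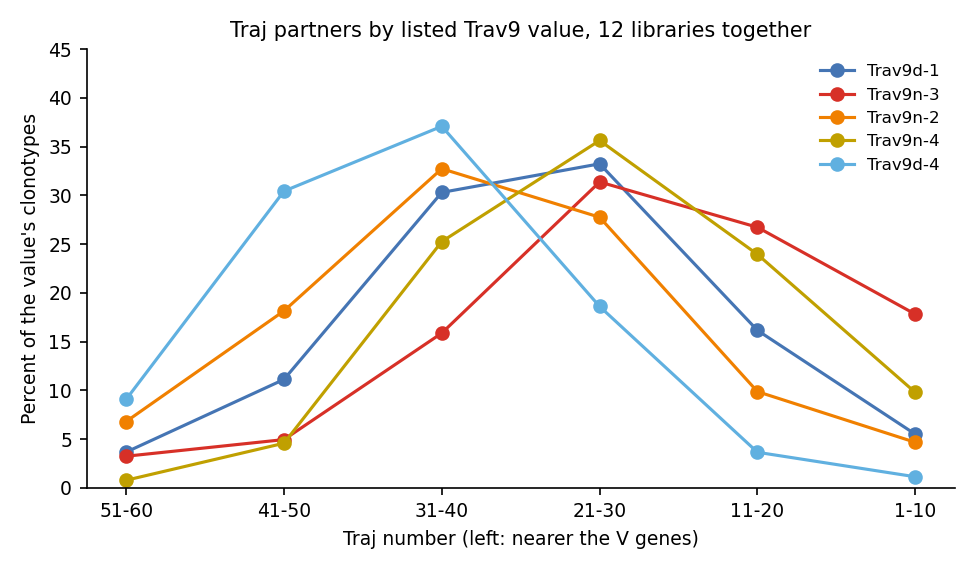
Percent of clonotypes of each listed Trav9 value by Traj number in steps of 10, with the Traj genes nearest the V genes on the left, over 12 libraries together. Trav9d-4 (mean 37.5) lies to the left and Trav9n-3 (mean 22.1) to the right.

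Taken over the family, the mean Traj number was 26.8 to 29.9 in tumors, 28.9 to 29.6 in tdLNs and 28.1 to 28.8 in spleens, and the other TRAC chains had 28.8 to 29.8, 29.4 to 29.6 and 28.8 to 29.0. Weighted by UMIs it was 15.9 in the control IgG tumor, whose Traj9 chains held 65.7% of Trav9 UMIs. With the 4 libraries of a tissue pooled, Traj31 was the most frequent partner in each tissue, in 5.93% of Trav9 clonotypes of tumors, 7.79% of tdLNs and 6.59% of spleens (4.98%, 5.97% and 5.27% of other chains). It was behind Traj9 and Traj23 in the control IgG tumor, with 4.31%, and behind Traj33 and Traj23 in the αCSF1R tumor, with 4.23%. Next came Traj23 and Traj26 in tumors, Traj27 and Traj23 in tdLNs and Traj23 and Traj30 in spleens.

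Traj9 was used by 9.90% of the Trav9 clonotypes of the control IgG tumor, and by 5.61% once the 1-base neighbours of its leader were left out. The share of Traj33 in the αCSF1R tumor was 16.9%, or 7.65% without the neighbours. Elsewhere Traj9 was at 1.06% to 3.62% and Traj33 at 2.26% to 3.74%. CDR3s of Trav9 chains had a mean of 40.8 to 41 bases over the 12 libraries, and those of other TRAC chains 40.6 to 41.2.

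Chains found in many libraries had few untemplated bases. The 12 libraries held 25021 distinct pairs of Trav9 CDR3 and Traj gene, of which 19821 (79.2%) were listed in 1 library. Those had a mean of 4.55 untemplated bases, against 2.72 in the 2739 listed in 2 libraries, 1.95 in the 220 listed in 6 and 1.23 in the 61 listed in 10. The share with no untemplated base was 2.55% among those in 1 library and 36.1% among those in 10. An added base that matches the germline is not counted. A misread base, or a V end missing from the annotation, can instead make germline bases count as untemplated. How far either shifts these counts was not tested. Sequences with more UMIs are also listed in more libraries (median 1 UMI in 1 library and 46 in 10), and their part in this was not tested.

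**Figure D5:**
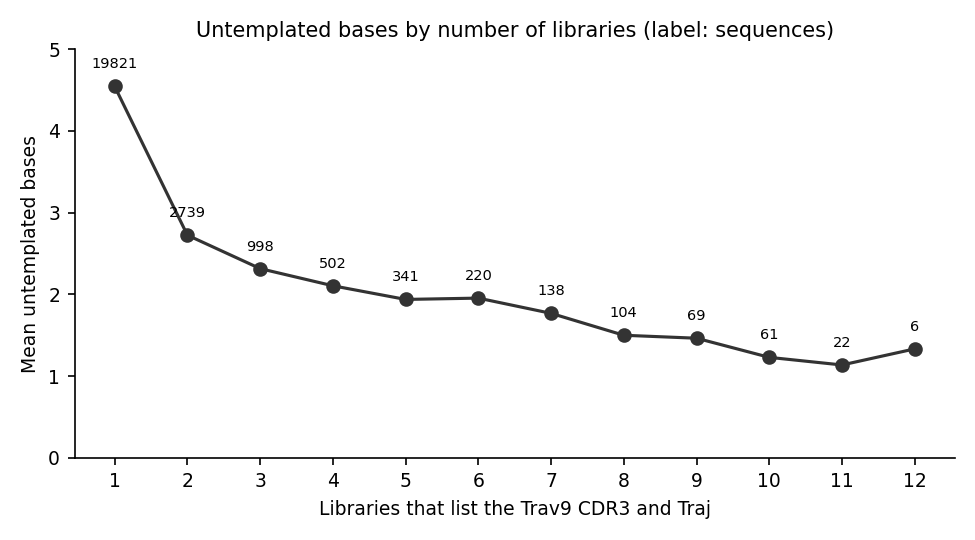
Mean number of untemplated bases of Trav9 CDR3s by the number of libraries that list the CDR3 and Traj gene, with the number of sequences above each point. The mean goes from 4.55 for 1 library to 1.23 for 10.

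Listed V, J and CDR3 together, 3 clonotypes occurred in all 12 libraries. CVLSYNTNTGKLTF with Trav9n-2 and Traj27 had 2 to 22 UMIs per library, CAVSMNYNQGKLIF with Trav9n-3 and Traj23 had 1 to 21, and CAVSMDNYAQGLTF with Trav9n-3 and Traj26 had 1 to 26. The first led Trav9 in the control IgG spleen and the second in the IL-10-Fc spleen. The other spleens were led by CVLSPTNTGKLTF, with 23 UMIs in the αCSF1R spleen and 19 in the αCSF1R tdLN, and by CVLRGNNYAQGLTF, with 23 in the BF10 spleen and 4 in the BF10 tdLN. The widely listed chains are shown beside the αCSF1R leader for their junctions, with 2, 0 and 3 untemplated bases:

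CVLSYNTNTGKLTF, Trav9n-2 with Traj27, all libraries: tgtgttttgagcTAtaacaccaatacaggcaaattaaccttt
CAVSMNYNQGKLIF, Trav9n-3 with Traj23, all libraries: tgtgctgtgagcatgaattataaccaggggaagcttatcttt
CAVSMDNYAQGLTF, Trav9n-3 with Traj26, all libraries: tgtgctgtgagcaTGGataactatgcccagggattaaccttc

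In the αCSF1R tumor, 54.3% of Trav9 UMIs belonged to chains without an untemplated base, nearly all from its leader. The share was 3.51% in the control IgG tumor and 9.78% to 13.1% in the other 10 libraries. By distinct sequences the 12 libraries were close to one another, at 8.09% to 10.5%. The β chain that each of these α chains paired with is not recorded in the clonotype lists.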

How the data were processed

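TCR libraries of 12 RNA pools, 1 for each of 4 treatments and 3 tissues, were analysed. Per the study's methods, RNA was copied with primers in the TCR constant regions, tagged with UMIs and sequenced, and the vendor's portal assigned V region, J region and CDR3. The UMI counts deposited by the authors are raw, and a clonotype has a column of them for every minimum of 3 to 7 reads. A frequency was deposited by the authors too, a fraction that equalled its UMIs with at least 3 reads divided by their total for the library and chain, and that was not otherwise used. The submitters' processing notes name mm10 as the genome build. The germline reference of the portal is not given in the sources used here.

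Groups were taken from the labels. Each group held 1 library, so shares are given with 95% Wilson intervals and differences with Newcombe intervals, for counting error only, and 3 UMIs were taken as the upper limit that a count of 0 allows. Depth per library was 23650 to 137078 TRAC UMIs. Only comparisons over tissues were tested: tdLN with spleen by sign flips within the 4 treatments, and overlap by permuting the 24 pairings of treatments. The named clonotypes were the Trav9 clonotypes among the 10 largest TRAC clonotypes of each tumor, the largest of each library, and the 3 most abundant of those listed in all libraries. The others of the 3 largest in each tumor were chosen after their values were seen, as was the count of V values that do not overlap between tdLN and spleen. Listed V values were named from 1% of Trav9 UMIs in any library. The members and lists were chosen with earlier results of these data known.

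Germline ends came from the GRCm38 genome with the GENCODE M21 annotation, whose 11 Trav9 genes do not include the Trav9-3 that some values list. Untemplated bases are those between the longest match to any of these Trav9 ends and the longest match to the listed Traj gene. Added bases that match the germline are missed, and germline bases beside a misread one can be counted. Alternatives were UMIs with at least 7 reads, clonotypes with at least 2 UMIs, values naming 1 gene, merging of CDR3s 1 base apart, and leaving out single treatments or the largest clonotypes. The steps were tested on simulated data, in which the junctions held no misread bases. Python 3.11.15, numpy 2.4.6, pandas 2.3.3, biopython 1.88 and matplotlib 3.10.9 were used.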

Additional observations from a re-analysis of the deposited data

Results flagged for a closer look

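The difference in Trav9 UMI share between tumor and tdLN did not have the same sign under all treatments. Tumor minus tdLN was 5.89 percentage points with control IgG (95% Newcombe interval 5.60 to 6.18), 5.43 with αCSF1R (4.98 to 5.90), 0.973 with BF10 (0.720 to 1.22) and -0.693 with IL-10-Fc (-0.908 to -0.478). The tdLN minus spleen difference also had both signs: it was 0.737 percentage points with control IgG, 0.854 with IL-10-Fc, -0.484 with αCSF1R and -1.06 with BF10. With 1 library per treatment and tissue these differences between treatments were not tested. The largest clonotype of the control IgG and αCSF1R tumors, and the low reads per UMI of the αCSF1R and BF10 tdLNs, go with them, and their part was not tested.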

How the results depend on the processing

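The Trav9 share of TRAC UMIs in tumors moved beyond its counting interval under several settings. With values that name 1 gene it was 15.8% (control IgG), 15.3% (αCSF1R), 9.84% (BF10) and 9.35% (IL-10-Fc), since chains of other families with undecided values leave the denominator. Without the 10 largest TRAC clonotypes it was 6.38% for the control IgG tumor and 8.62% for the αCSF1R tumor. Without the largest Trav9 clonotype, a setting chosen after seeing the data, it was 6.45% and 6.28%. UMIs with at least 7 reads gave 13.1% in the control IgG tumor and 6.87% in the IL-10-Fc tumor, and put 53.7% of Trav9 UMIs of the αCSF1R tumor in its largest clonotype. Clonotypes with at least 2 UMIs gave 6.82% in the IL-10-Fc tumor and 7.09% in the BF10 tumor. The control IgG and αCSF1R tumors remained above the other 2 under every setting that kept their largest clonotypes. The share of TRAC clonotypes rose by 0.183 to 0.589 percentage points when CDR3 and J were merged over V values. That setting, chosen after seeing the data, moved it beyond its interval in 10 of 12 libraries. Merging of CDR3s 1 base apart did so in 0 of 12, with 6.97% in the αCSF1R tumor.

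The mean UMI difference between tdLN and spleen ran from -0.270 to 0.369 percentage points when 1 treatment was left out, and it was negative without control IgG (-0.230) or without IL-10-Fc (-0.270). For clonotypes it turned positive with UMIs of at least 7 reads (0.122) and over the control IgG and IL-10-Fc pairs alone (0.230, chosen after seeing the data). The overlap of tdLN with spleen, as the ratio of same to different treatments, no longer reached an exact permutation p under 0.05 by presence alone (ratio 1.07), with UMIs of at least 7 reads (1.07) or with at least 2 UMIs (1.14), and ran from 1.04 to 1.16 without 1 treatment, where 3 pairs cannot reach that p. The ratio of tumor with tdLN was 0.974 with at least 2 UMIs. The causes were not tested. The shares of the listed values, taken by clonotypes in place of UMIs, moved beyond their intervals in 48 of 72 cases and by at most 34.5 percentage points. No paired analysis was possible because the labels carry no replicate numbers and each group held 1 library; only the treatment paired the tissues, as in the tests above.

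Depth limits the αCSF1R tumor most: it held 189 Trav9 clonotypes, and a count of 0 allows a share of up to 0.0127% of its TRAC UMIs.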

Other observations

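The same Trav9 CDR3 and Traj gene were listed under more than 1 V value in 2.16% to 7.44% of the distinct sequences of a library. In the IL-10-Fc tdLN this held for 343 of 4612 sequences and in the αCSF1R tumor for 4 of 185. These sequences held 68.4% of Trav9 UMIs in the control IgG tumor and 62.4% in the αCSF1R tumor, whose leading clones were among them with 2 UMIs each under another value, and 12.2% to 21.8% elsewhere. The pair listed together most often was Trav9d-1 with Trav9n-2, in 579 of 2850 cases over the 12 libraries, followed by Trav9d-4 with Trav9n-2 in 567 and Trav9d-1 with Trav9n-3 in 535.

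Untemplated bases differed little between the listed copies, with means of 3.28 for Trav9n-2 to 3.44 for Trav9n-4 among the 5 values that name 1 gene. The annotated second exons of the 11 Trav9 genes had a median identity of 87.4% over 55 pairs, and the lowest was 66.9%.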
